A study of Mus musculus with 6 samples.

Results

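The genes described here are the 7 named genes of the MHC class II presentation pathway, namely H2-Aa, H2-Ab1, H2-Eb1, Cd74, Ciita, H2-DMa and H2-DMb1, out of the 36083 genes measured by RNA-seq. They were taken by name, through their Ensembl identifiers, and all 7 were present. The cells came from a mouse model of blast crisis chronic myelogenous leukemia (bcCML), an aggressive and undifferentiated myeloid leukemia. KLS cells, the c-Kit+ Sca1+ stem and progenitor cells of bone marrow, were sorted from WT or Sdc1-/- donors on the B6 background. In both groups they carried retroviral BCR-ABL and NUP98-HOXA9 and were transplanted. The labels name NSG mice, which lack lymphocytes of their own, as recipients, whereas the general methods of the study name irradiated CD45.1 mice for this leukemia, and the text below follows the labels. Spleens of both cohorts were taken at the same time, and Lin- bcCML cells were sorted for the NGFR and CD2 reporters of the vectors and against CD3ε, CD4, CD8, Gr1, CD11b, TER119, B220 and other lineage markers. Each group had 3 libraries, all labelled B6 donor and NSG recipient. The age and sex of the mice were not given per library. The knockout allele has a disrupted signal peptide, which keeps the mature protein from the cell surface and does not by itself require that the mRNA is absent. The labels do not say that the libraries of a group came from separate mice, and the study describes Lin- WT libraries as technical replicates, so each SD and p-value below measures the spread between these libraries only.

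MHC class II molecules are pairs of an α and a β chain that carry peptides from the endosome to the cell surface, where CD4+ T cells read them. H2-Aa and H2-Ab1 encode the α and β chains of I-A, and H2-Eb1 encodes the β chain of I-E. The invariant chain, encoded by Cd74, guides newly made dimers to the endosome and blocks their groove until cathepsins trim it, and the H2-DM dimer, encoded by H2-DMa and H2-DMb1, exchanges the last fragment for peptide. Ciita encodes the co-activator that joins factors bound to the X and Y boxes of class II promoters. Professional antigen-presenting cells hold the highest levels, and class II is also found on myeloid progenitors and leukemias.

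The values were TPM, levels scaled for transcript length and library size, which had been rescaled between libraries by the authors, so that the sum of a library ran from 944973 to 1058263. Read depth is unknown, and no counting interval could be given. Sdc1 itself, the targeted gene, measured 1.75, 1.21 and 1.51 in the WT libraries, against 3.85, 3.80 and 4.12 in the libraries labelled Sdc1-/-, which is higher by 0.99 ± 0.093 (SE) on the log2 scale (adjusted p = 1.2e-04). Sdc1 mRNA thus does not check the labels in the direction of a loss. The study tested for the deletion by PCR and antibody staining, which the files used here do not hold, and every direction below is between libraries as they are labelled. The summed level of 4 Y-linked genes was 0.276 to 0.308 in WT and 68.1 to 78.4 in the libraries labelled Sdc1-/-. The labelled genotype and the sex of the cells therefore cannot be told apart in these libraries.

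Positions are those of GENCODE M21 on GRCm38, the build that the submitters name as mm10. H2-DMa (17:34119541-34139101, + strand), H2-DMb1 (17:34153072-34160230, +), H2-Ab1 (17:34257689-34269419, +), H2-Aa (17:34282744-34287823, -) and H2-Eb1 (17:34305867-34316674, +) lie together in the class II region of chromosome 17, and Ciita lies on chromosome 16 (10480059-10528418, +). Cd74 lies on another chromosome. Since class II promoters are known for their X and Y boxes, the RefSeq promoter table (GRCm38.p6, 250 bases before to 50 after each start) was searched for an X box core, CCNAGNNAC, followed on the same strand by a Y box core, ATTGG, that starts 15 to 40 bases after it. The table held 5 windows for 4 members, namely H2-DMa, H2-DMb1, H2-Aa and H2-Eb1, so H2-Ab1, Cd74 and Ciita were not searched. The pair was found in H2-DMb1 alone of these 4, and in 0.228% of all 32851 promoters on the gene's strand or 0.502% on either strand. A looser X core, CNNGNAAC, chosen after the sequences had been seen, gave a pair in H2-DMb1, H2-Aa and H2-Eb1, against 0.548% of all promoters on the gene's strand and 1.10% on either. Taken singly, the X core was in 8.73% of promoters on the gene's strand and 17.3% on either, the looser X core in 22.2% and 39.1%, and the Y core in 22.1% and 37.4%. Neither form of the pair was in the windows of H2-DMa or in that of its neighbour H2-DMb2. The looser pair was also in the window of H2-Eb2, whose level was near 0 in both groups (means 0.0482 and 0.0498). The sequences below, 5′ to 3′ on the gene's strand, show how alike the paired boxes are in members that differ in level, with the looser X core and the Y core in capitals and the neighbours H2-Oa and H2-Ob for comparison. They are H2-Aa at chr17:34287857-34287922 (- strand), H2-Eb1 at chr17:34305758-34305822 (+), H2-Oa at chr17:34092285-34092350 (+) and H2-Ob at chr17:34238800-34238862 (+). For H2-DMb1 only the X box and its flanks are shown, at chr17:34153083-34153112 (+), because GENCODE places it within the first exon.
H2-Aa: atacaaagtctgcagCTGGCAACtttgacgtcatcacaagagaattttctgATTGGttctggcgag
H2-Eb1: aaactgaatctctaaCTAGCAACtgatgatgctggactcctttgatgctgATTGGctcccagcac
H2-DMb1: atgaggtttacCTAGTAACtgatgatgcta
H2-Oa: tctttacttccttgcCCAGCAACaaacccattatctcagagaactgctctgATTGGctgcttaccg
H2-Ob: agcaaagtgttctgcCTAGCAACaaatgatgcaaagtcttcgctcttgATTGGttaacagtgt
The X core began 84 bases before the RefSeq start in H2-Aa, 94 in H2-Eb1 and 97 in H2-DMb1, and the Y core followed 36, 35 and 36 bases after the start of the X core. A match describes letters in a window and is not a measurement of binding.

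Class II presentation genes were lower in the libraries labelled Sdc1-/- than in WT, with a difference in degree between members. Of the 7 members, 6 reached the mean of 1 over all libraries required for a test, and 5 of these 6 fell by limma on log2(value + 1) at an adjusted p under 0.05, while 0 rose. Over all 12155 tested genes, 3810 fell (31.3%) and 3564 rose (29.3%). The median log2 fold change was -0.84 over the 6 tested members and -0.0097 over all tested genes. In 5 of the 6 tested members the libraries did not overlap and those labelled Sdc1-/- were lower, which held for 34.2% of all tested genes. The members, and the gene lists below, were chosen with earlier results of these data known. Their counts beside the shares over all tested genes are therefore a description and no test. The member that was not called was H2-Ab1, and the member too low for the test was Ciita.

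**Figure D1:**
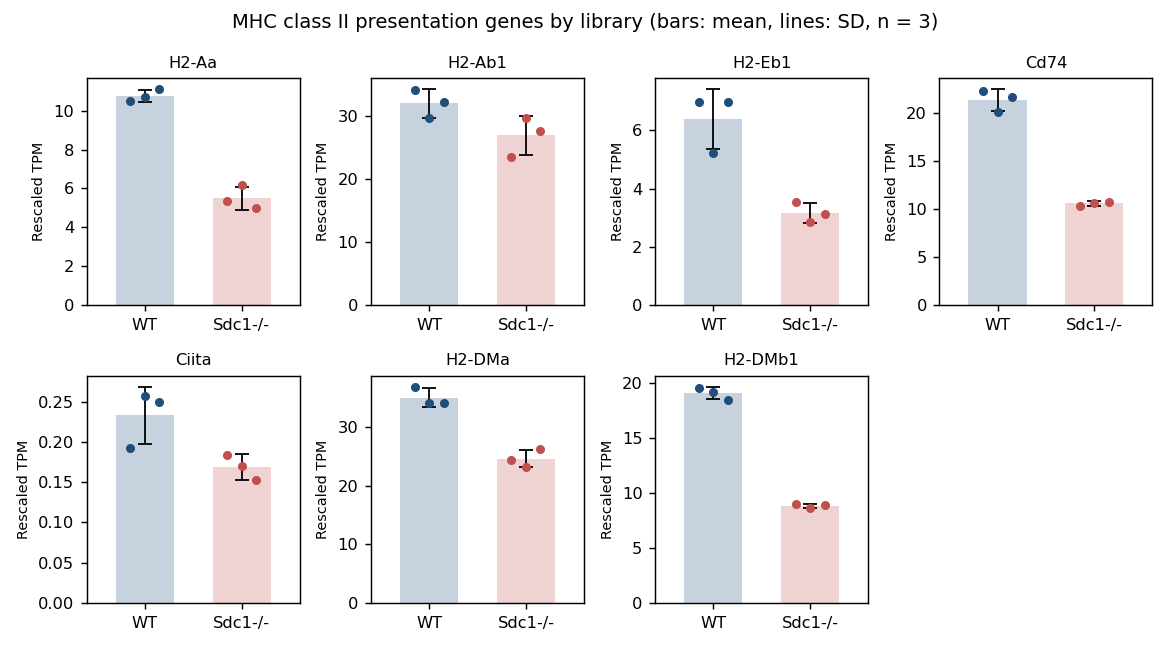
Rescaled TPM of each of the 7 members (vertical axes, linear and starting at 0) in the 3 WT libraries and the 3 libraries labelled Sdc1-/-, with bars at the group mean and lines for 1 SD. H2-Aa, H2-Eb1, Cd74 and H2-DMb1 sat near 50% of their WT mean in the libraries labelled Sdc1-/-, and H2-Ab1 was the member whose groups met.

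The α chain gene H2-Aa (ENSMUSG00000036594) measured 10.5, 10.7 and 11.1 in WT, against 5.35, 6.16 and 5.01 in the libraries labelled Sdc1-/-, with means of 10.8 ± 0.271 and 5.50 ± 0.592 (SD, n = 3). Every library labelled Sdc1-/- was below every WT library. The log2 fold change was -0.86 (SE 0.071, 95% interval -1.03 to -0.69, adjusted p = 6.7e-05), and 4.2% of all tested genes had a lower one.

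H2-Ab1 (ENSMUSG00000073421), which encodes the β partner of H2-Aa, measured 34.2, 29.7 and 32.2 in WT, against 23.6, 29.7 and 27.7 in the libraries labelled Sdc1-/-. The groups met, since replicate 2 of each lay at 29.7. The means were 32.0 ± 2.23 and 27.0 ± 3.15 (SD, n = 3), and the log2 fold change of -0.24 (SE 0.090, 95% interval -0.45 to -0.03) did not pass the test (adjusted p = 0.051). The interval allows a decrease of 0.45, which is smaller than the nearest bound for H2-Aa. This lay at the edge of the threshold. H2-Ab1 passed with all libraries at a minimum mean of 5 (-0.24, adjusted p = 0.042). It also passed without WT replicate 2 (-0.29, adjusted p = 0.043) and without replicate 2 of the libraries labelled Sdc1-/- (-0.31, adjusted p = 0.026).

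The β chain gene of I-E, H2-Eb1 (ENSMUSG00000060586), measured 6.97, 5.21 and 6.99 in WT, against 3.54, 2.84 and 3.14 in the libraries labelled Sdc1-/-. WT replicate 2 was the lowest of its group and still above all libraries of the other. The means were 6.39 ± 1.02 and 3.17 ± 0.349 (SD, n = 3), and the log2 fold change was -0.82 (SE 0.12, 95% interval -1.09 to -0.54, adjusted p = 8.1e-04). B6 mice carry an I-E α gene that makes no product, and its pseudogene entry, H2-Ea-ps, was listed at 0 in all 6 libraries. H2-Eb1 is overlapped by the antisense gene Gm20513 on the opposite strand. Of the 1972 words of 31 bases in the transcripts of H2-Eb1, 21 were shared with other genes on either strand. The sharing genes were H2-Eb2 (14) and H2-Ab1 (7), and Gm20513 was not among them.

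The invariant chain gene Cd74 (ENSMUSG00000024610) measured 22.3, 20.1 and 21.7 in WT, against 10.3, 10.7 and 10.8 in the libraries labelled Sdc1-/-. Its means, 21.4 ± 1.11 and 10.6 ± 0.276 (SD, n = 3), put the latter at 49.7% of WT. The log2 fold change of -0.95 (SE 0.049, 95% interval -1.06 to -0.83, adjusted p = 8.7e-06) had an interval clear of that of H2-Ab1, and 3.46% of all tested genes had a lower fold change.

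Of the peptide exchange dimer, H2-DMb1 (ENSMUSG00000079547), its β chain gene, measured 19.6, 19.2 and 18.5 in WT, against 9.01, 8.64 and 8.90 in the libraries labelled Sdc1-/-. This was the largest decrease of the 6 tested members, with means of 19.1 ± 0.535 and 8.85 ± 0.189 (SD, n = 3) and a log2 fold change of -1.03 (SE 0.041, 95% interval -1.13 to -0.93, adjusted p = 3.2e-06). A total of 2.89% of tested genes had a lower fold change. Its transcripts share 517 of 1648 words of 31 bases (31.4%) with H2-DMb2, the adjacent near-identical gene, so the split of reads between both is uncertain. Summed in each library, H2-DMb1 and H2-DMb2 gave 21.4, 20.9 and 20.5 in WT, against 10.2, 9.99 and 10.1 in the libraries labelled Sdc1-/-, a log2 difference of -0.98, with H2-DMb2 making up 8.01% to 13.5% of the sum. The sum, chosen after the shared words had been counted, thus differed as H2-DMb1 alone did.

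H2-DMa (ENSMUSG00000037649), the α chain gene of the same dimer, measured 36.8, 34.0 and 34.1 in WT, against 24.4, 23.2 and 26.2 in the libraries labelled Sdc1-/-. The groups did not overlap, but the decrease was smaller than that of its partner. The means were 35.0 ± 1.59 and 24.6 ± 1.51 (SD, n = 3), and the log2 fold change was -0.49 (SE 0.055, 95% interval -0.62 to -0.36, adjusted p = 2.7e-04), with 11% of tested genes lower. H2-DMa overlaps Brd2 on the opposite strand and shares 333 of its 3609 words (9.23%) with it, counting both strands. The kit keeps strand, but whether it was used in the quantification is not given in the sources used here, so reads of this stretch may not be told apart, and Brd2 was higher in the libraries labelled Sdc1-/- by 0.41 (adjusted p = 1.0e-04).

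The transactivator gene Ciita (ENSMUSG00000022504) was the lowest member, at 0.192, 0.257 and 0.249 in WT, against 0.184, 0.170 and 0.152 in the libraries labelled Sdc1-/-. The groups did not overlap, although the lowest WT library was close to the highest of the others. With means of 0.233 ± 0.0354 and 0.169 ± 0.0157 (SD, n = 3), Ciita lay under the minimum mean. In the fit with no minimum, in which 16.6% of 24714 genes fell, its log2(value + 1) fold change of -0.08 did not pass (adjusted p = 0.089), and the added 1 shrinks a change at this level. A difference in Ciita was not detectable by this test at this level, and 2.77% of its words are shared with other genes, mostly the overlapping Dexi.

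Levels differed widely between members, and the order was nearly the same in both groups. By mean rescaled TPM in WT it ran H2-DMa, H2-Ab1, Cd74, H2-DMb1, H2-Aa, H2-Eb1 and Ciita. H2-DMa at 34.0 to 36.8 and H2-Ab1 at 29.7 to 34.2 overlapped and did not differ beyond their spread, while each later neighbour in the order had a range apart from the one before it. In the libraries labelled Sdc1-/- H2-Ab1 and H2-DMa exchanged places, again with overlapping ranges (23.6 to 29.7 and 23.2 to 26.2), and the other 5 kept their ranks. Set against all 36083 genes, the WT mean was at the percentile 90.5 for H2-DMa, 89.8 for H2-Ab1, 86.7 for Cd74, 85.7 for H2-DMb1, 80.9 for H2-Aa, 76.9 for H2-Eb1 and 58.7 for Ciita. These 36083 include 11369 genes with a value of 0 throughout, and against the 12155 tested genes alone the percentiles were 71.7 for H2-DMa, 69.7 for H2-Ab1, 60.4 for Cd74, 57.6 for H2-DMb1, 43.4 for H2-Aa and 31.4 for H2-Eb1. Among tested genes, H2-Aa and H2-Eb1 thus lay in the lower part of the range.

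The sum of the 7 members was 131, 119 and 125 in WT, against 76.3, 81.5 and 82.0 in the libraries labelled Sdc1-/-, and its composition differed as well. H2-Ab1 made up 24.9% to 26.2% of the sum in WT and 30.9% to 36.5% in the libraries labelled Sdc1-/-. The share of Cd74 was 16.9% to 17.4% against 13.1% to 13.5%, and that of H2-DMb1 14.8% to 16.1% against 10.6% to 11.8%. H2-Aa also made up a smaller share, 8.07% to 8.97% against 6.11% to 7.56%. H2-Ab1 therefore gained share where its partner chain and the invariant chain lost it. H2-DMa had 27.3% to 28.5% in WT and 28.5% to 32% in the libraries labelled Sdc1-/-, ranges that met. For H2-Eb1 the shares overlapped, at 4.37% to 5.6% against 3.49% to 4.63%. A share rises for any member that fell less than the sum.

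Ratios within a library do not depend on how libraries were scaled to each other, and 4 of them were compared. H2-Aa to H2-Ab1, the chains of I-A, was 0.309, 0.360 and 0.344 in WT, against 0.227, 0.207 and 0.181 in the libraries labelled Sdc1-/-, a log2 difference of -0.72. H2-Eb1 to H2-Ab1, the β chains of I-E and I-A, was 0.204, 0.176 and 0.217 against 0.15, 0.0955 and 0.113 (-0.75). In both, all libraries labelled Sdc1-/- were below all WT libraries. Cd74 to the mean of H2-Aa and H2-Ab1 was 0.997, 0.997 and 1.00 in WT, against 0.713, 0.596 and 0.662 in the libraries labelled Sdc1-/- (-0.61). H2-DMa to H2-DMb1 went the other way, from 1.88, 1.77 and 1.84 to 2.71, 2.69 and 2.95 (0.60). Both genes of this ratio share words with another gene, H2-DMa with Brd2 and H2-DMb1 with H2-DMb2, as given above. How far shared reads enter the ratio was not tested. The invariant chain was thus on a par with the mean I-A chain transcript in every WT library and below it in the others. Each of the 4 ratios separated the groups with no overlap, and the exact two-sided permutation test gave p = 0.1 for each (0.1 after Benjamini-Hochberg adjustment over the 4), which is the smallest that 3 against 3 libraries allow.

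**Figure D2:**
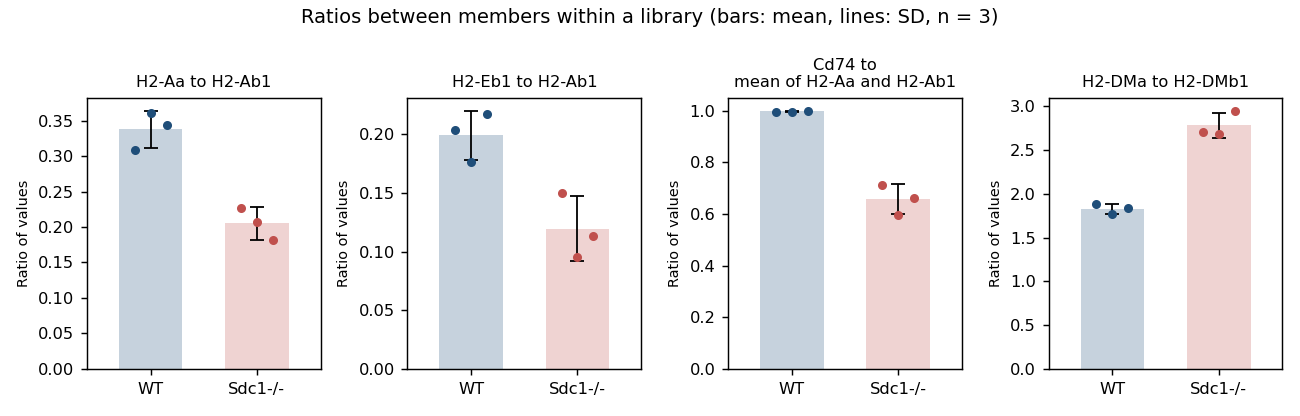
Ratios of rescaled TPM between members within each library (vertical axes, no unit, starting at 0), with bars at the group mean and lines for 1 SD (n = 3). The ratio of H2-DMa to H2-DMb1 was higher in the libraries labelled Sdc1-/- (2.69 to 2.95 against 1.77 to 1.88), and the other 3 ratios were lower.

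Along chromosome 17, the members sit in a stretch of 249.1 kb from H2-Oa to H2-Eb2 (17:34092340-34341412) with 14 protein-coding genes, 9 of them class II genes. H2-Oa, which with H2-Ob encodes the H2-O dimer that restrains H2-DM, measured 38.4, 37.8 and 39.5 in WT, against 22.7, 23.4 and 22.4 in the libraries labelled Sdc1-/-, a log2 fold change of -0.73 (SE 0.035, adjusted p = 6.7e-06). Its partner H2-Ob fell less, from a mean of 13.9 ± 0.0931 to 11.7 ± 0.435 (SD, n = 3; log2 fold change -0.23, adjusted p = 0.0026), and lost its call when each library was set to the same sum (-0.09, adjusted p = 0.091). H2-DMb2 fell by 0.33 on the log2 scale (adjusted p = 0.0086) at a mean of 1.85 in WT, and H2-Eb2 was near 0 in both groups (means 0.0482 and 0.0498). All 3 tested genes of this list of other class II genes fell (31.3% over all tested genes), with 5 of its 7 names in the table and a median of -0.33.

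The genes between them, which were chosen by their position, did not share one direction. Tap1, which encodes a chain of the peptide transporter of MHC class I, fell by 0.23 (adjusted p = 0.0014), and Psmb8, a subunit gene of the immunoproteasome, by 0.23 (adjusted p = 0.0016), and both lost the call when each library was set to the same sum (adjusted p = 0.069 and 0.081). Psmb9, its neighbouring subunit gene, had a fold change of 0.08 (adjusted p = 0.19) and Tap2 one of -0.13 (adjusted p = 0.07). Brd2, a bromodomain gene within the same stretch, rose as given above. The fold changes of H2-DMb1, H2-Aa and H2-Eb1 were below those of all neighbours that are no class II gene, with intervals that did not overlap theirs. The same held for H2-Oa and H2-DMa. The other tested class II genes were not set apart in this way. Their intervals, for H2-Ab1 (-0.45 to -0.03), H2-Ob (-0.33 to -0.13) and H2-DMb2 (-0.52 to -0.15), overlapped those of Tap1 (-0.31 to -0.14) and Psmb8 (-0.32 to -0.14).

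**Figure D3:**
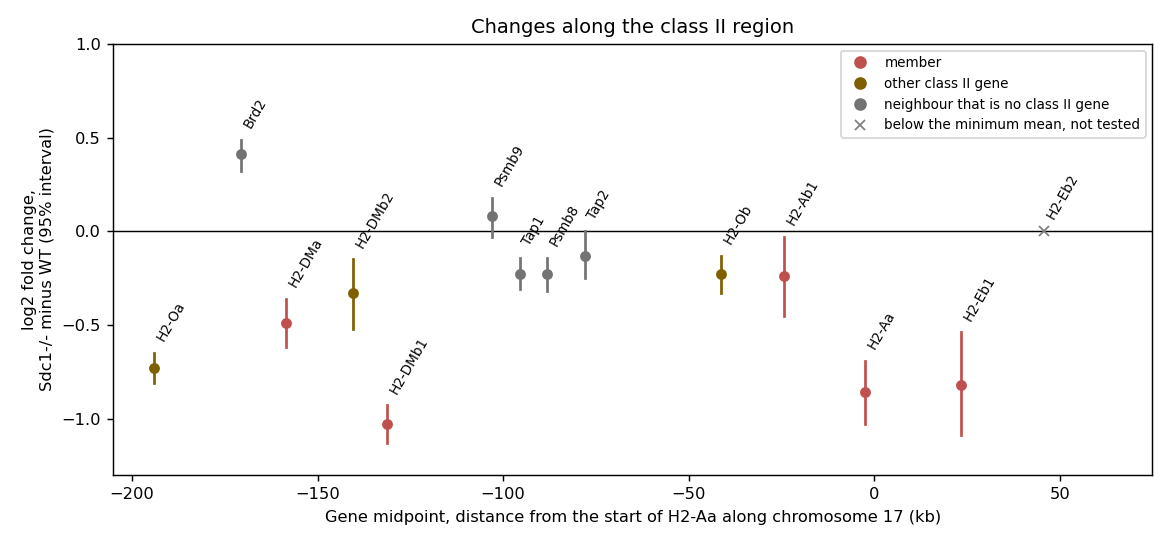
Log2 fold changes, labelled Sdc1-/- minus WT, with 95% intervals from limma (vertical axis) for the 14 protein-coding genes of the class II region by distance in kb from the start of H2-Aa (horizontal axis). Brd2 at 0.41 lies between H2-Oa at -0.73 and H2-DMa at -0.49, and H2-Eb2 was too low to test.

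The factors that occupy class II promoters were not lower as a group. Of 7 genes of this list, all tested, 1 fell and 3 rose, with a median of 0.14, where 31.3% of all tested genes fell and 29.3% rose. Nfya, a subunit gene of the Y box factor NF-Y, rose from 12.4 ± 0.367 to 17.7 ± 0.687 (SD, n = 3; log2 fold change 0.48, adjusted p = 1.2e-04). Rfxap, a subunit gene of the X box complex RFX, rose by 0.15 (adjusted p = 0.012), and Nfyb fell by 0.18 (adjusted p = 0.027), a call lost in 6 of 15 other settings. The remaining call, Nfyc at 0.14 (adjusted p = 0.031), was lost in 5 of 15.

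Signalling to Ciita and its regulators moved in both directions, with 6 of 9 tested genes lower and 2 higher among 12 on the list, and a median of -0.32 (31.3% lower and 29.3% higher over all tested genes). Spi1, which encodes the myeloid factor PU.1, measured 111, 113 and 109 in WT, against 65.3, 58.9 and 54.0 in the libraries labelled Sdc1-/- (log2 fold change -0.90, SE 0.066, adjusted p = 3.8e-05). The chains of the interferon-γ receptor fell together, Ifngr1 from 131 ± 5.89 to 87.1 ± 2.61 (-0.59, adjusted p = 3.6e-05) and Ifngr2 from 18.5 ± 0.685 to 12.4 ± 1.74 (-0.55, adjusted p = 0.0017; SD, n = 3). Downstream of that receptor, Jak1 and Jak2 also fell (-0.40 and -0.32), whereas Irf1, a transcription factor gene that interferon-γ induces, rose from 6.35 ± 0.06 to 8.34 ± 0.669 (SD, n = 3; 0.34, adjusted p = 0.0024). These last 3 were named after their values were seen. Socs1, another gene of the list, fell from 9.07 to 7.3 (-0.28, adjusted p = 0.0039) and was also named after its values were seen. The receptor and kinase genes and Socs1 thus differed between the groups in the direction opposite to Irf1.

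Endolysosomal genes for antigen processing fell in 7 of 8 tested members of the list, with a median of -0.52, and 0 rose (31.3% and 29.3% over all tested genes). Ctss, which encodes cathepsin S, the protease that makes the last cut in the invariant chain, measured 10.5, 11 and 11 in WT, against 2.67, 2.71 and 2.09 in the libraries labelled Sdc1-/-. Cathepsin S transcripts thus had a fold change of -1.77 on the log2 scale (SE 0.081, adjusted p = 5.2e-06), further down than any of the 6 tested class II members. Ctsl, for cathepsin L, fell from 34.4 ± 0.939 to 14.0 ± 0.733 (SD, n = 3; -1.24, adjusted p = 2.7e-06), and Ctsd, for cathepsin D, fell by 0.60 (adjusted p = 1.3e-05) at a level of 340 in WT. Sppl2a, the intramembrane protease gene for the invariant chain's stub, was the gene not called (-0.14, adjusted p = 0.081), and its fold change was 0.01 when each library was set to the same sum. Genes of the substrate and of the enzymes that trim it were both lower in these libraries.

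Among the genes for ubiquitination and turnover of surface class II, 1 of 3 measured was tested and 0 were called. March8, an E3 ubiquitin ligase gene, had overlapping groups at 11.4 to 17.5 and 10.5 to 16.0 and a fold change of -0.01 with an interval of -0.46 to 0.44, whose sign changed with the setting. March1, the related ligase gene, lay under the minimum mean at 0.684, 0.658 and 0.616 in WT, against 0.0526, 0.181 and 0.109 in the libraries labelled Sdc1-/-. It was lower in the fit with no minimum (adjusted p = 6.2e-04) and was named after its values were seen. Of the co-stimulation genes, 2 of 4 tested fell and 0 rose, with a median of -0.15, where 31.3% of all tested genes fell. Cd80, the ligand gene for CD28, fell from 5.48 ± 0.464 to 2.99 ± 0.325 (SD, n = 3; -0.70, adjusted p = 3.8e-04), and Pdcd1lg2, for PD-L2, fell by 0.34.

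**Figure D4:**
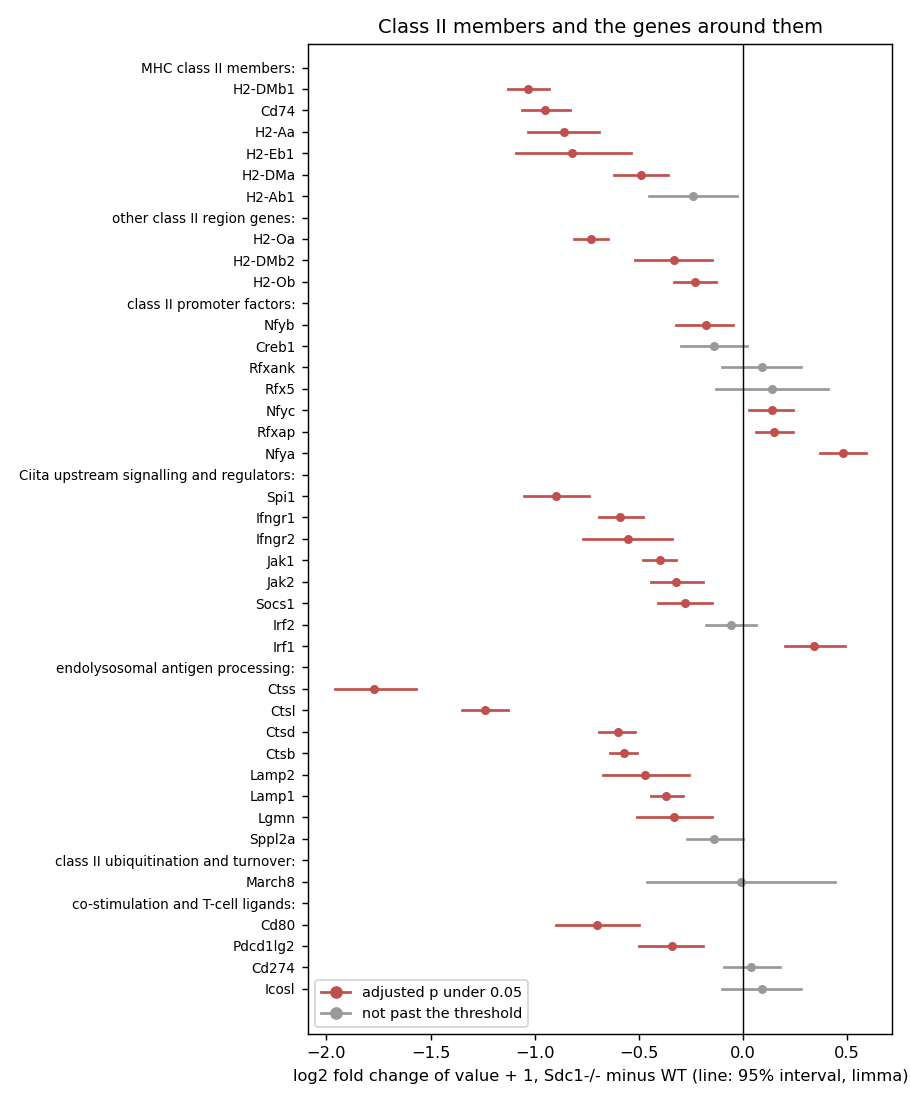
Log2 fold changes of value + 1, labelled Sdc1-/- minus WT, with 95% intervals from limma (horizontal axis) for the tested class II members and the tested genes of the 6 pathway lists that are reported here, in red where the adjusted p was under 0.05. Ctss at -1.77 and Ctsl at -1.24 lie lowest, Nfya at 0.48 highest, and H2-Ab1 is the grey member.

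Class II genes mark antigen-presenting cells, so the markers of such cells are given beside them. In bulk samples, fewer cells of a type and less RNA per cell cannot be told apart. B cell markers were nearly absent, with a summed level of 2.47 to 3.16 in WT and 2.20 to 3.11 in the libraries labelled Sdc1-/-, 9 of 10 below 0.5 in every library, and 0 called. Cd79b was the most abundant of them at 2.29 and 2.12. Markers of conventional dendritic cells summed to 157 to 170 in WT and 69.7 to 75.4 in the libraries labelled Sdc1-/-, with 3 of 4 tested genes lower (31.3% over all tested genes). Most of this was Clec10a (140 against 57.5), without which the sums were 21.3 to 23.4 and 14.1 to 14.7, and the median of the tested markers was -0.56. Flt3 fell from 13.2 ± 0.511 to 7.71 ± 0.311 and Zbtb46 from 1.73 ± 0.237 to 1.05 ± 0.022 (SD, n = 3). Itgax (means 0.629 and 0.248) and Batf3 (0.483 and 0.129) were under the minimum mean, and Xcr1, Clec9a, Cd209a and Ccr7 were at most 0.118 in any library. The markers of this list other than Clec10a were named after their values were seen.

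Most tested monocyte and macrophage markers were lower in the libraries labelled Sdc1-/-. Of 11 tested, 9 were lower and 1 was higher, against 31.3% and 29.3% of all tested genes, with a median of -0.97. Summed levels were 794 to 810 in WT and 375 to 385 in the libraries labelled Sdc1-/-. Ly6c2 was the most abundant at 490 and 217. Of the plasmacytoid dendritic cell markers, summing to 83.6 to 89.9 and 109 to 114, both tested genes rose (29.3% over all tested genes), namely Bst2 and Tcf4, the latter in 11 of 15 other settings. The other 6 of 8 markers were below 0.5, and in the fit with no minimum 2 of them, Ccr9 (0.303 and 0.173, adjusted p = 0.02) and Pacsin1 (0.276 and 0.172, adjusted p = 0.043), were lower in the libraries labelled Sdc1-/-. T and NK cell markers summed to 342 to 353 in WT and 288 to 301 in the libraries labelled Sdc1-/-. Of 3 tested, 1 was lower and 0 were higher (31.3% and 29.3% over all tested genes). Almost all of the sum was Nkg7 (340 and 286), without which it was 8.03 to 9.62 and 8.51 to 9.31. Cd3e, Cd3g, Cd4, Cd8a and Ncr1 were at most 0.124, so most of this remainder came from other markers of the list. Leukemic progenitor markers, which the label of the cells calls for, summed to 1320 to 1420 in WT and 1040 to 1060 in the libraries labelled Sdc1-/-, with 5 of 10 lower and 5 higher (31.3% and 29.3% over all tested genes). The marker lists overlap with genes that myeloid leukemia cells use themselves, and the part of the monocyte and dendritic cell markers in the class II result was not tested.

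Some genes had almost the same profile over the 6 libraries as the most abundant members. Likeness was the root mean square difference of centred log2(value + 1) among 8961 non-member genes with a mean of at least 5. For H2-DMa they were Hpn (0.027), Nedd4l (0.031), Nop53 (0.036), Fcnb (0.039) and Rnf19b (0.042). For H2-Ab1 they were Smim27 (0.040), Gm37025 (0.040), Acsf2 (0.048), Tmbim4 (0.054) and Ppp4r3b (0.059). Neither group of 5 contained a gene of the pathway lists, and the members had been left out of the search, so none of them could appear. This likeness over 6 libraries in 2 groups is a description only.

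Of the settings tried, the scaling between libraries moved the count of lower genes most. When each library was set to a sum of 1000000, the median of all tested genes moved by 0.13, and the calls were 2367 lower and 5290 higher in place of 3810 and 3564, so that the lower genes were 30.9% of the calls and not 51.7%. The 5 called members were still called lower, with log2 fold changes of -0.73 for H2-Aa, -0.70 for H2-Eb1, -0.81 for Cd74, -0.35 for H2-DMa and -0.89 for H2-DMb1, and H2-Ab1 was at -0.10 (adjusted p = 0.37). Relative to the median of all tested genes the members were where they had been, for example H2-Aa at -0.85 with either scaling and Cd74 at -0.93 against -0.94. Over the 15 other settings, H2-DMb1 ranged from -1.10 to -0.89 and H2-Ab1 from -0.31 to -0.10, so the largest and the smallest decrease among the tested members did not come near each other.

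**Figure D5:**
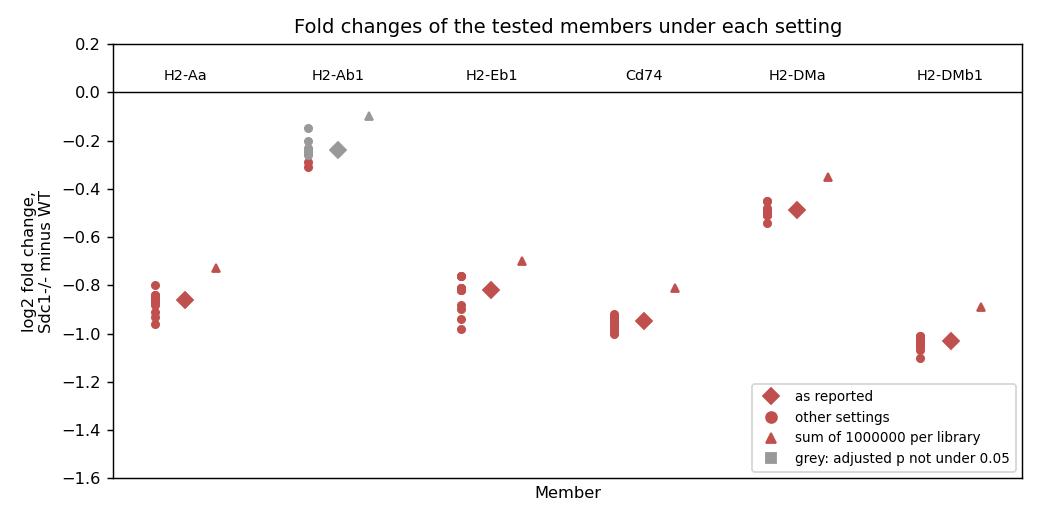
Log2 fold changes, labelled Sdc1-/- minus WT (vertical axis), of the 6 tested members (horizontal axis) as reported (diamonds), with each library set to a sum of 1000000 (triangles) and in the other settings (circles), in grey where the adjusted p was not under 0.05. All points lie below 0, and H2-Ab1 is the member whose call depended on the setting.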

How the data were processed

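The authors quantified reads with kallisto, summed them to genes with sleuth 0.30.0 (build mm10, per the submitters' processing notes) and deposited a signal per gene and library, TPM rescaled between libraries. The kallisto version, index, strand setting and the form of rescaling are not given in the sources used here. Libraries were made from 150 ng of RNA with a stranded mRNA kit and read as single ends of 75 bases. A second table, which holds the p-values, q-values, effect sizes and variances of the authors' own comparison, was not used. Of the 36083 identifiers, 35454 matched a symbol in GENCODE M21, and 11369 genes were at 0 in all libraries. Depth is unknown.

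Groups were taken from the labels. All 36083 genes were filtered by their mean over the 6 libraries, which had to reach 1 (12155 genes), and log2(value + 1) was fitted with limma 3.58.1 in R 4.3.3 with a variance trend, adjusting by Benjamini-Hochberg over all tested genes at 0.05. A fold change on this scale understates that of low genes. The fit was checked on simulated data. Ratios were tested by exact permutation with scipy 1.17.1. Shared words are stretches of 31 bases that a member's transcripts in GENCODE M21 have in common with transcripts of other genes on either strand. Pathway genes were named as up to 3 called genes per list with the largest fold change, class II neighbours with all values, and likeness by the 5 nearest genes to each of the 2 most abundant members. The members and lists were chosen with earlier results of these data known. Alternatives were other pseudocounts, minimum means, scalings, a fit without trend, the replicate number as a block, and each library left out in turn. Some members of the lists, though included in their counts, are not reported here by name.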

Additional observations from a re-analysis of the deposited data

How the results depend on the processing

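For the 6 tested members, 86 of 89 alternatives kept the direction and the side of the threshold, and 0 reversed a direction. The other 3 brought H2-Ab1 past the threshold, among them a minimum mean of 5 (adjusted p = 0.042). H2-Eb1 lay under a minimum mean of 5 and had no value there. With each library set to a sum of 1000000, 2367 genes were lower in place of 3810. Irf2 turned to 0.08, Sppl2a to 0.01 and March8 to 0.13. This scaling moved the median of all tested genes by 0.13, and low genes by less, for example H2-DMb2 from -0.33 to -0.25. March8 ran from -0.14 to 0.16 with 1 library left out, at 0.15 without WT replicate 3 and 0.16 without Sdc1 KO replicate 1, and the cause was not tested. With 1 library left out, 3369 to 3594 genes were lower and 3106 to 3368 higher. Whether the replicate numbers pair the samples was not settled. Deviations from the group means had correlations of 0.15, -0.0083 and 0.018 between same-numbered libraries, and of -0.16 to 0.14 between the others. Deviations within a group cancel out, so these values depend on each other and cannot decide. With the number as a replicate block, 3971 genes were lower and 3653 higher, H2-Ab1 stayed uncalled (adjusted p = 0.096), Sppl2a passed (adjusted p = 0.039), and the 5 called members stayed called. The ratios kept their direction in every setting tried, with a smallest possible p of 0.25 in the block, 0.2 without a library and 0.1 otherwise. Unknown depth leaves no counting error for low genes such as Ciita.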

Other observations

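Outside the class II pathway, the progenitor and myeloid markers gave values that stand beside it. Meis1, a homeobox gene of immature leukemia cells, measured 13.4, 12.7 and 13.1 in WT, against 27.4, 29.5 and 28.9 in the libraries labelled Sdc1-/-, and the groups did not overlap. Elane, the neutrophil elastase gene of granulocyte progenitors, measured 288, 262 and 283 against 171, 165 and 175. Within the list of progenitor markers, 5 genes were lower and 5 higher (31.3% and 29.3% over all tested genes). Granule genes were among the lower ones, and so was Cd34 (47.4 to 39.9, log2 fold change -0.24, adjusted p = 0.0019). Meis1 rose by 1.07 on the log2 scale, and the other higher markers Kit, Myb, Hoxa9 and Msi2 by 0.18, 0.37, 0.18 and 0.24. Cx3cr1 was the monocyte marker that was higher, at 10.9, 11.5 and 11.2 in WT against 14.2, 13.6 and 13.2. These genes were named after their values were seen.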
